A study of Mus musculus with 2 samples.

Results

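The 10 genes described here encode RNA-binding proteins of 4 families: the polypyrimidine tract binding proteins Ptbp1 and Ptbp2, the Nova proteins Nova1 and Nova2, the Rbfox proteins Rbfox1, Rbfox2 and Rbfox3, and the Elav proteins Elavl2, Elavl3 and Elavl4. They were chosen by symbol, by matching the Ensembl identifiers of the deposited gene tables, without their version, to GENCODE. Each of the 10 had a row in both gene tables, out of 69691 rows in all. The rule itself used no measured value, although the genes were chosen with earlier results of these data known. The closest relatives outside the set, Ptbp3 and Elavl1, were read beside them.

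The tissue was whole midbrain of newborn mice of strain B6NCrl, taken on postnatal day 0. The single group held 2 untreated animals, called pup 1 and pup 3, and each gave its midbrain to 1 library made from 10 ng of total RNA. The labels treat them as separate animals, although they list one donor identifier for both, and no sex is recorded. With no second condition, the comparisons are between family members, between transcripts of a gene and between the 2 pups.

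These proteins decide which exons enter the messenger RNA of neurons, or how long that RNA lasts. Ptbp1 binds pyrimidine-rich RNA and keeps neuronal exons out in progenitors and non-neural cells. As neurons form, the microRNA miR-124 lowers Ptbp1, and its close relative Ptbp2 takes over, with weaker repression of many of the same exons. Nova and Rbfox proteins bind YCAY and UGCAUG elements, and promote or block an exon by where they bind near it. Elavl2, Elavl3 and Elavl4, known as HuB, HuC and HuD, are the neuronal Hu proteins, which bind U-rich RNA, stabilise messages and also act on splicing.

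Several of these genes regulate themselves and one another through exons that are alternatively spliced. The 34-base exon of Ptbp1 is the known site of its autoregulation, since skipping it gives a transcript sent to nonsense-mediated decay. The matching exon of Ptbp2 is the one whose skipping is driven by Ptbp1. Both are shown in mm10, 5′ to 3′ on the sense strand, with capitals at the 8 bases where Ptbp2 differs from Ptbp1 (26 of 34 identical).
Ptbp1 (chr10:79862014-79862047, plus strand): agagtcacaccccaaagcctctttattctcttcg
Ptbp2 (chr3:119724612-119724645, minus strand): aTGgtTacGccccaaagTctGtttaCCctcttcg

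The 39-base exon of the neuronal Elav genes encodes 13 amino acids of the hinge that joins the second and the third RNA recognition motifs. It is shown because its use could be read in Elavl2 and Elavl4. Capitals mark the bases that differ from Elavl2, which number 6 in Elavl4 and 5 in Elavl3.
Elavl2 (chr4:91254141-91254179, minus strand): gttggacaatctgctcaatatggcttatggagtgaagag
Elavl4 (chr4:110209740-110209778, minus strand): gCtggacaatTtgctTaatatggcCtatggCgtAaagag
Elavl3 (chr9:22024674-22024712, minus strand): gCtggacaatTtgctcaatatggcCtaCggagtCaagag

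The 93-base exon of the Rbfox genes lies in the RNA recognition motif, and the proteins made without it do not bind RNA normally. Rbfox1 and Rbfox2 each differ from Rbfox3 at 24 of its 93 bases, in capitals below.
Rbfox3 (chr11:118502842-118502934, minus strand): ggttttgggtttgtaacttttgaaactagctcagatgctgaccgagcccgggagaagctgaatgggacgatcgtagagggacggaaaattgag
Rbfox1 (chr16:7292185-7292277, plus strand): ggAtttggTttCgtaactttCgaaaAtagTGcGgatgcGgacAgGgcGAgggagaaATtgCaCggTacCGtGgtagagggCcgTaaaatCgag
Rbfox2 (chr15:77105577-77105669, minus strand): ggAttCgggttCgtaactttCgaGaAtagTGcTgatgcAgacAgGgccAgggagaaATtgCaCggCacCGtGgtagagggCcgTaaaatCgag

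The libraries held 3.69e+07 (pup 1) and 4.08e+07 (pup 3) expected counts. Levels below are TPM, in which counts are divided by transcript length and each library is set to a common total, and errors are SD over the 2 pups (n = 2). Of the marker lists, all 6 neuronal and 5 of 6 midbrain genes reached 1 TPM in both pups, and so did 7 of 8 progenitor genes. None of 5 Hox genes of the hindbrain and spinal cord did, and En2 of the midbrain list was at 0.88 and 0.74 TPM. The level was also reached by 3 of 4 cerebellar, 5 of 5 astrocyte, 4 of 5 oligodendrocyte lineage and 5 of 5 microglial genes. The same held for 4 of 4 endothelial, 4 of 4 mural and fibroblast and 2 of 2 blood genes. In whole tissue, fewer cells of a type and less RNA per cell cannot be told apart.

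All 10 genes reached 1 TPM in both pups, as did 62.1% of 21474 protein-coding genes. Their median was 56.7 TPM, against 4.63 TPM over all protein-coding genes. Elavl4 was the highest, with 224 TPM in pup 1 and 216 in pup 3, at percentile 96.7 of protein-coding genes. Rbfox1 followed with 190 and 171 TPM and Ptbp2 with 97.9 and 106 TPM. Nova2 was the lowest, with 9.52 and 11 TPM, at percentile 60.2. Neighbours in this order were separated, with no overlap of the pups' values or of the deposited credibility intervals, in 7 of 9 steps. The 2 steps without such a gap were Nova1 (51.8 and 51.9 TPM) to Elavl3 (48.7 and 54.1 TPM) and Elavl3 to Rbfox2 (47.1 and 50.3 TPM). This order holds for TPM over all transcripts. Nova1 was the highest by expected counts and Rbfox1 by TPM of protein-coding transcripts. With counts divided by the longest transcript of each gene, Ptbp2 was the highest.

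**Figure D1:**
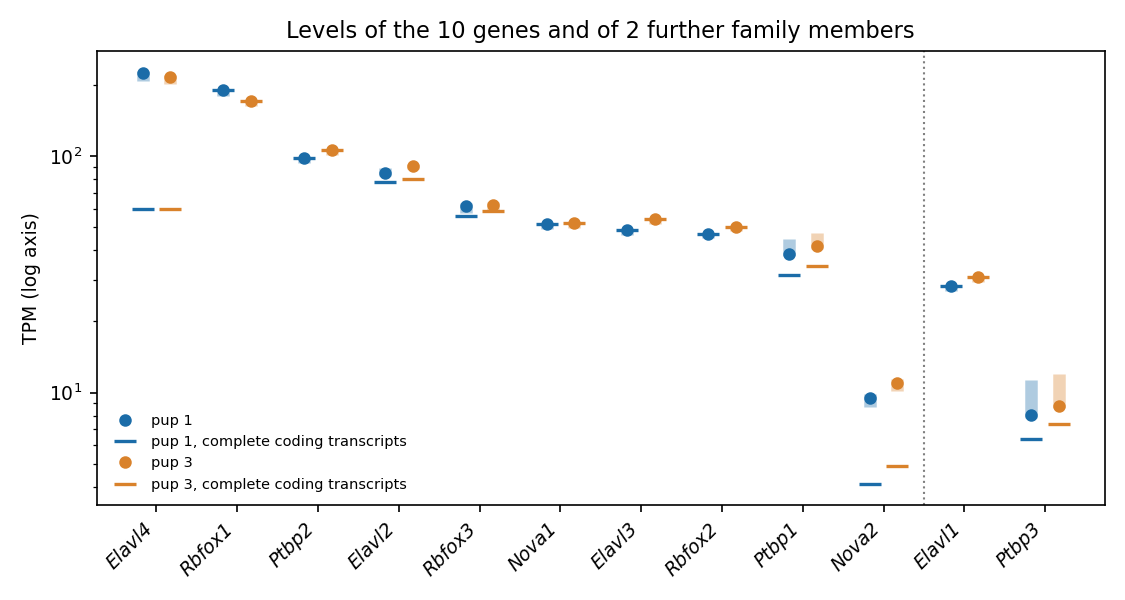
Level of each gene in TPM (log axis), 1 point for pup 1 (left) and 1 for pup 3 (right), with the deposited credibility interval of the posterior mean as a pale bar and the TPM of complete coding transcripts as a dash. The genes run from Elavl4 (224 and 216 TPM) down to Nova2 (9.52 and 11 TPM), with Elavl1 and Ptbp3 after the dotted line, and the dash lies far below the point for Elavl4.

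Ptbp2 was the main polypyrimidine tract binding protein gene of the newborn midbrain. It had 97.9 (pup 1) and 106 (pup 3) TPM, against 38.6 and 41.8 TPM for Ptbp1 and 8.07 and 8.75 TPM for Ptbp3, the relative known from blood cells. Ptbp2 held 67.7% of the family's TPM in each pup, Ptbp1 26.7% and Ptbp3 5.58%. The ratio of Ptbp2 to Ptbp1 was 2.54 in each pup, and the log2 ratio to Ptbp3 was 3.58 and 3.59. A pair was called apart where both pups had the same sign, the mean log2 ratio exceeded 1 and 3 SD, and the credibility intervals did not overlap. Both Ptbp pairs were apart, and they stayed apart under each of the 10 alternatives tried. The log2 ratio of Ptbp2 to Ptbp1 then lay between 1.22 and 1.75. Several alternatives, such as FPKM (TPM rescaled within a library) or 1 pup left out, reuse nearly the same values. With 2 animals the smallest p of an exact sign-flip test is 0.5, and none is printed.

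Ptbp1 (ENSMUSG00000006498.12, chromosome 10, 79854427 to 79864771) rested on 2219 and 2577 expected counts and was the only one of the 10 genes whose counts were not whole within 0.005. Its transcripts run into Plppr3, a neuronal membrane protein gene on the other strand with 304 TPM in pup 1 and 297 TPM in pup 3. Up to 178 bases of exon are shared, in 8 of 16 Ptbp1 transcripts, and these hold 89.8% and 89.9% of the Ptbp1 TPM. Whether strand was used in counting is not given in the sources used here, and the part of Plppr3 reads in the Ptbp1 level was not tested. Ptbp2 (ENSMUSG00000028134.7, chromosome 3, 119718742 to 119784466) had 7394 and 8752 counts and no overlapping gene.

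Nova1 exceeded Nova2 in both pups. Nova1 (ENSMUSG00000021047.6, chromosome 12, 46694517 to 46818929), known above all from brain regions below the cortex and from spinal cord, had 51.8 (pup 1) and 51.9 (pup 3) TPM. Nova2 (ENSMUSG00000030411.11, chromosome 7, 18925888 to 18965319), the Nova gene best known from cortex, had 9.52 and 11 TPM. The log2 ratio of Nova2 over Nova1 was -2.43 and -2.23 (mean -2.33 ± 0.14), so Nova2 was 5.03-fold lower. The pair was apart here and under each of the 10 alternatives, from -3.50 to -2.23. The value of -3.50 came from protein-coding transcripts alone, a setting that drops the Nova2 transcript without a match described below. Nova1 held 84.5% and 82.5% of the family's TPM. The Nova2 share is uncertain in one respect: 56.9% and 55.4% of its TPM lay in a transcript of 5110 bases (ENSMUST00000172835.3) that GENCODE M21 does not list, and the rest in Nova2-201, which encodes 556 amino acids.

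Among the Rbfox genes, Rbfox1 led by TPM and not by counts. Rbfox1 (ENSMUSG00000008658.11, chromosome 16, 5885355 to 7411526), whose span of 1526 kb is the longest of the 10 genes, had 190 (pup 1) and 171 (pup 3) TPM. Rbfox3 (ENSMUSG00000025576.13, chromosome 11, 118489762 to 118911597), which encodes the neuronal antigen NeuN, had 61.3 and 61.9 TPM. Rbfox2 (ENSMUSG00000033565.12, chromosome 15, 77078990 to 77307004), also used outside neurons, had 47.1 and 50.3 TPM.

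The log2 ratio of Rbfox1 over Rbfox2 was 2.01 and 1.76 (mean 1.89 ± 0.17), and that of Rbfox3 over Rbfox1 was -1.63 and -1.46 (mean -1.55 ± 0.12). Both pairs were apart by TPM. Rbfox3 over Rbfox2 was 0.38 and 0.30, below the threshold of 1. By expected counts, which are not divided by length, Rbfox2 held 44.2% of the family, Rbfox1 36.7% and Rbfox3 19.1%, and the ratio of Rbfox1 over Rbfox2 turned to -0.27. With counts divided by the longest transcript of each gene, Rbfox1 was again above Rbfox2, at 0.52, and no longer apart.

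Most of the Rbfox1 level was assigned to its shorter transcript. Rbfox1-202 has 1191 bases, holds the reading frame of 396 amino acids with its stop and 0 untranslated bases, and in GENCODE M21 shares all 1191 bases with Rbfox1-201. It was given 88.4% of Rbfox1 TPM in pup 1 and 85.9% in pup 3, and 67.5% and 62.5% of the counts. Rbfox1-201, of 4084 bases in the tables and 3061 in GENCODE M21, was given 11.7% and 14.1% of the TPM. The counts per kilobase were 3554 and 3398 for Rbfox1-202 and 499 and 596 for Rbfox1-201. Rbfox1 ranked the second of the 10 genes by TPM and the sixth by counts.

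The neuronal Elav genes were all above the ubiquitous Elavl1, the gene of HuR, which had 28.3 (pup 1) and 30.9 (pup 3) TPM. Elavl4 (ENSMUSG00000028546.13, chromosome 4, 110203722 to 110351909) had 224 and 216 TPM. Elavl2 (ENSMUSG00000008489.14, chromosome 4, 91250763 to 91400785) had 85.3 and 90.9 TPM, and Elavl3 (ENSMUSG00000003410.7, chromosome 9, 22015005 to 22052023) had 48.7 and 54.1 TPM.

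On the log2 scale, Elavl4 exceeded Elavl1 by 2.98 and 2.80 and Elavl2 exceeded it by 1.59 and 1.55, and both pairs were apart. Elavl3 exceeded Elavl1 by 0.78 and 0.81, below the threshold. Elavl4 was apart from Elavl3 (2.20 and 1.99) and, in Elavl2 over Elavl4, from Elavl2 (-1.39 and -1.25), while Elavl2 over Elavl3 was 0.81 and 0.75. In all, 9 of the 12 pairs read over the 4 families were apart, and 3 of the 9 (both Ptbp pairs and the Nova pair) were so under each alternative.

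The lead of Elavl4 depended on transcripts without a full reading frame. In transcripts annotated as protein-coding, Elavl4 had 97.1 and 92.5 TPM and Elavl2 had 78.5 and 81.0 TPM. In coding transcripts with complete ends, Elavl4 had 59.8 and 60.1 TPM, Elavl2 77.6 and 79.7 TPM and Elavl3 48.7 and 54.1 TPM. Elavl2 over Elavl4 was then 0.39, the reverse of -1.32 over all transcripts, and Elavl4 over Elavl3 was 0.22. By expected counts Elavl4 and Elavl2 were close, with 30.6% and 29.97% of the counts of the 4 Elav genes, against 23.3% for Elavl3 and 16.1% for Elavl1. By counts, Elavl4 exceeded Elavl1 by 0.93 and Elavl2 exceeded it by 0.90, both just under the threshold.

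**Figure D2:**
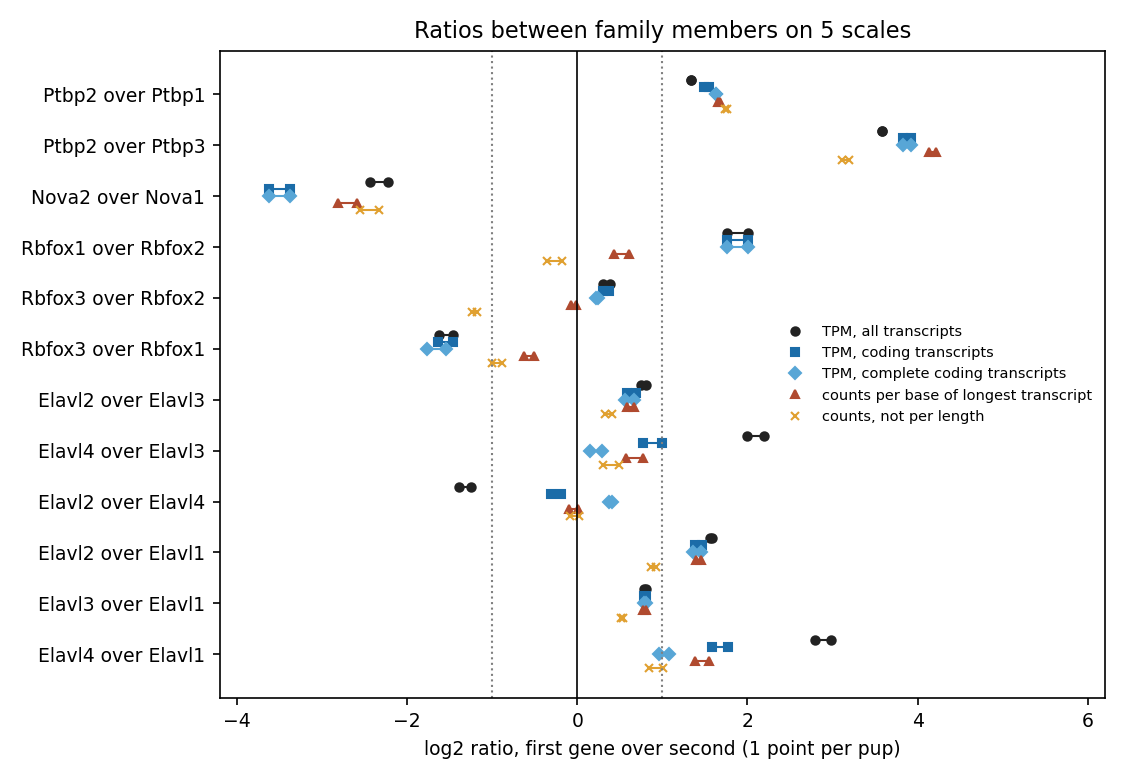
Log2 ratio of the first gene over the second for 12 pairs, 1 point per pup, on 5 scales; dotted lines mark -1 and 1. The Ptbp and Nova pairs keep to their side of the threshold on each scale, whereas Rbfox1 over Rbfox2 runs from 1.89 by TPM to -0.27 by counts and Elavl2 over Elavl4 from -1.32 to 0.39.

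Elavl4 had most of its TPM in transcripts annotated as noncoding. The tables hold 65 transcripts of the 10 genes, 18 of them annotated as noncoding or as targets of nonsense-mediated decay, and 11 had 0 counts in both pups. Ptbp2, Nova1 and Elavl3 have 1 transcript each in the tables, so nothing on their splicing could be read. Nova2 could not be classed, since most of its TPM lay in the transcript without a match. Of the other 6 genes with several transcripts, only Elavl4 had 10% or more of its TPM in such transcripts in both pups, where 38.1% of 9744 protein-coding genes did. By counts the same gene passed, against 25.8% of the 9744.

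In Elavl4 these transcripts held 56.6% (pup 1) and 57.1% (pup 3) of TPM, at percentile 92.4 of the 9744 genes, whose median was 6.06%. They held 23.9% ± 1.25 of its counts. All of it lay in 2 processed transcripts, a class without an annotated reading frame. Elavl4-211, of 869 bases, had 41.8% and 35.2% of the TPM, and 720 of its bases lie in exons of Elavl4-202. Elavl4-210, of 464 bases, had 14.8% and 22.0%, with 345 bases shared. Elavl4-202, the complete transcript of 4024 bases that encodes 380 amino acids, had 14.5% and 15.2% of the TPM and 37.7% and 39.2% of the counts. A further 12.8% and 9.64% of TPM lay in Elavl4-208, a coding fragment of 644 bases.

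Ptbp1 had 13.4% (pup 1) and 9.54% (pup 3) of its TPM in noncoding or decay-targeted transcripts. Retained introns made up 8.88% and 5.86%, and decay targets 3.21% and 3.08%. Elavl2 had 7.94% and 10.9%, of which its retained-intron transcript Elavl2-215 made up 7.06% and 9.42%. Rbfox3 had 0.29% and 0, and the transcripts of Rbfox2 and Rbfox1 are all annotated as coding. For Nova2 the transcript that holds 56.9% and 55.4% of its TPM has no class in GENCODE M21, so its noncoding share could not be read.

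The main coding transcripts of these genes differed in protein length. Ptbp1-202, with 489 amino acids, had 34.6% and 42.1% of Ptbp1 TPM, Ptbp1-216, with 555, had 31.03% and 33.8%, and a form of 529 (ENSMUST00000165704.3) had 16.2% and 6.10%. For Rbfox2, Rbfox2-203 (381 amino acids) led with 60.7% and 64.3%, ahead of Rbfox2-202 with 27.6% and 25.7% and Rbfox2-201 with 11.7% and 9.98%. No protein length is given for these last Rbfox2 transcripts, whose models differ between the releases (Rbfox2-202 has 6564 bases in the tables and 3072 in GENCODE M21, Rbfox2-201 has 6980 and 1720). Most of the Rbfox3 TPM lay in 4 transcripts, and Rbfox3-204 and Rbfox3-203, both of 313 amino acids, led. Rbfox3-204 had 33.5% and 34.5% and Rbfox3-203 had 24.1% ± 0.530. The other two, ENSMUST00000117731.3 (360 amino acids) and Rbfox3-201 (374 amino acids), had 20.7% ± 1.27 and 12.4% ± 1.17. Elavl2-208 (388 amino acids) and Elavl2-201 (360 amino acids) had like shares, 33.3% ± 4.14 and 32.3% ± 2.18, followed by ENSMUST00000107124.5 (359 amino acids) with 14.8% ± 1.78.

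**Figure D3:**
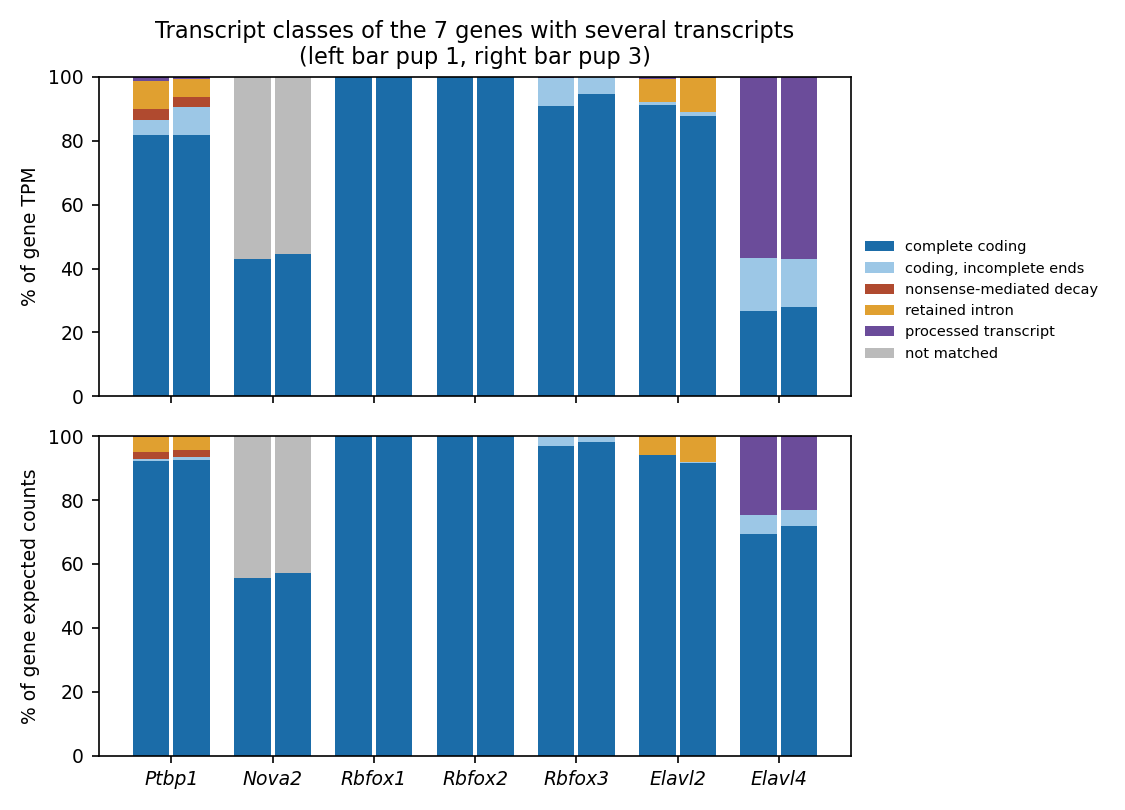
Share of each transcript class in the TPM (upper panel) and in the expected counts (lower panel) of the 7 genes with more than 1 transcript, left bar pup 1 and right bar pup 3. Processed transcripts fill 56.6% and 57.1% of the Elavl4 TPM and 23.9% ± 1.25 of its counts, and Nova2 has a transcript that the annotation does not match.

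Exons were read as the TPM of transcripts that contain an exon with both its ends, as a share of these and of the transcripts that skip it within an intron. Transcripts with an overlapping exon of other ends were not counted. In the 10 genes, 12 annotated alternative internal exons could be read, in Ptbp1, Rbfox3, Elavl2 and Elavl4. Only deposited transcripts of equal length in both releases were used. The other genes may have annotated alternative exons that could not be read, as for Ptbp2 below. Inclusion was between 10% and 90% in both pups for 4 of the 12, where 32% of 13548 such exons of all protein-coding genes were. The median difference between the pups was 0.584 percentage points over the 12 exons, against 1.32 over all. Ptbp1 exons of 30, 31 and 196 bases read the same in both pups because 1 side of the share had 0 TPM. The 4 exons between 10% and 90% differed by more than this median. They ran from 78.3% and 77.2% (Rbfox3, 40 bases) to 24.5% and 16.4% (Elavl4, 87 bases). The medians therefore do not show closer agreement of the pups in these genes.

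The 34-base exon of Ptbp1 was included at 96.3% in pup 1 and 96.5% in pup 3. The transcripts that skip it, both annotated as decay targets, had 1.24 and 1.29 TPM. Decay removes such transcripts, so these shares describe the RNA present and do not show how often the exon is skipped in splicing. Its counterpart in Ptbp2 is skipped in 3 transcripts of GENCODE M21, of which 0 are in the tables, so its use was not read. Both exons hold the pyrimidine motifs TCTT and CTCT on the sense strand, the only strand searched, 2 of each in Ptbp1 and 1 of each in Ptbp2. The motifs overlap one another, as in CTCTT, and 21.8% of 197 internal exons of 34 bases hold at least one of them.

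The 78-base exon of Ptbp1 encodes 26 amino acids of the linker after the second RNA recognition motif and separates Ptbp1-216 from the form of 529 amino acids. It was included at 37.7% (pup 1) and 42.0% (pup 3). It is printed with CTCT, found once, in capitals; 44.9% of 1386 internal exons of this length hold TCTT or CTCT.
Ptbp1 78-base exon (chr10:79860117-79860194, plus strand): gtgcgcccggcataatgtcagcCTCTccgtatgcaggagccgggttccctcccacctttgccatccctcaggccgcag

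The hinge exon of 39 bases was included at 94.3% and 91.5% in Elavl2, and at 95.4% and 95.3% in Elavl4, where the noncoding Elavl4-211 is among the transcripts that contain it. With protein-coding and decay-targeted transcripts alone, it was at 88.7% ± 0.783 in Elavl4, below the 90% bound. An 87-base exon near the 5′ end of Elavl4 was included at 24.5% and 16.4%, mostly through the fragment Elavl4-208, and a 91-base exon near the 5′ end of Elavl2 at 41.2% and 37.7%. In Rbfox3, the 93-base exon of the RNA recognition motif was included at 100% and 99.6%, where the transcript without it had 0 and 0.23 TPM. A 40-base exon of Rbfox3 was included at 78.3% and 77.2%. The remaining 4 exons lie in Ptbp1. Those of 31 and 196 bases overlap and share an end, so the 100% read for each in both pups counts only the transcript that skips both, which had 0 TPM. The 31-base form lay in transcripts of 34.84 and 39.25 TPM and the 196-base form in 1 transcript of 1.33 and 1.91 TPM. The exon of 30 bases was at 0 in both pups, where only Ptbp1-202, with 13.36 and 17.59 TPM, counted as skipping it. The other main coding forms of Ptbp1 counted neither as containing nor as skipping it. The 0 therefore does not show that its bases are absent from them. The exon of 117 bases was at 1.38% and 0.607%.

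Some exons that these proteins are known to control were read in target genes. The 18-base N1 exon of the kinase gene Src, a neuronal exon repressed by Ptbp1, was included at 57.2% (pup 1) and 50.6% (pup 3). The 54-base neuronal exon of the clathrin light chain gene Cltb was at 71.5% and 70.5%. The Src exon, shown because it is a known Ptbp1 target, holds neither TCTT nor CTCT, which occur in 12.7% of 142 internal exons of 18 bases. The introns beside it were not searched, so this does not show whether Ptbp1 can bind there.
Src (chr2:157458843-157458860, plus strand): gaggaaggtggatgtcag

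Agrn, the gene of agrin, carries short z exons of 24 and 33 bases, which encode 8 and 11 amino acids. Nova promotes them in neurons, and they make agrin active at the nerve-muscle synapse. The 24-base z exon was included at 87.5% and 84.4% and the 33-base z exon at 31.2% and 25.7%. A retained-intron transcript counts as including the first and as skipping the second. The 12-base y exon was at 75.8% and 69.1%. With protein-coding and decay-targeted transcripts alone, all 3 exons were at 66.8% ± 6.56, since 1 transcript then holds all of them, so the gap between the z exons rests on the retained-intron transcript.

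**Figure D4:**
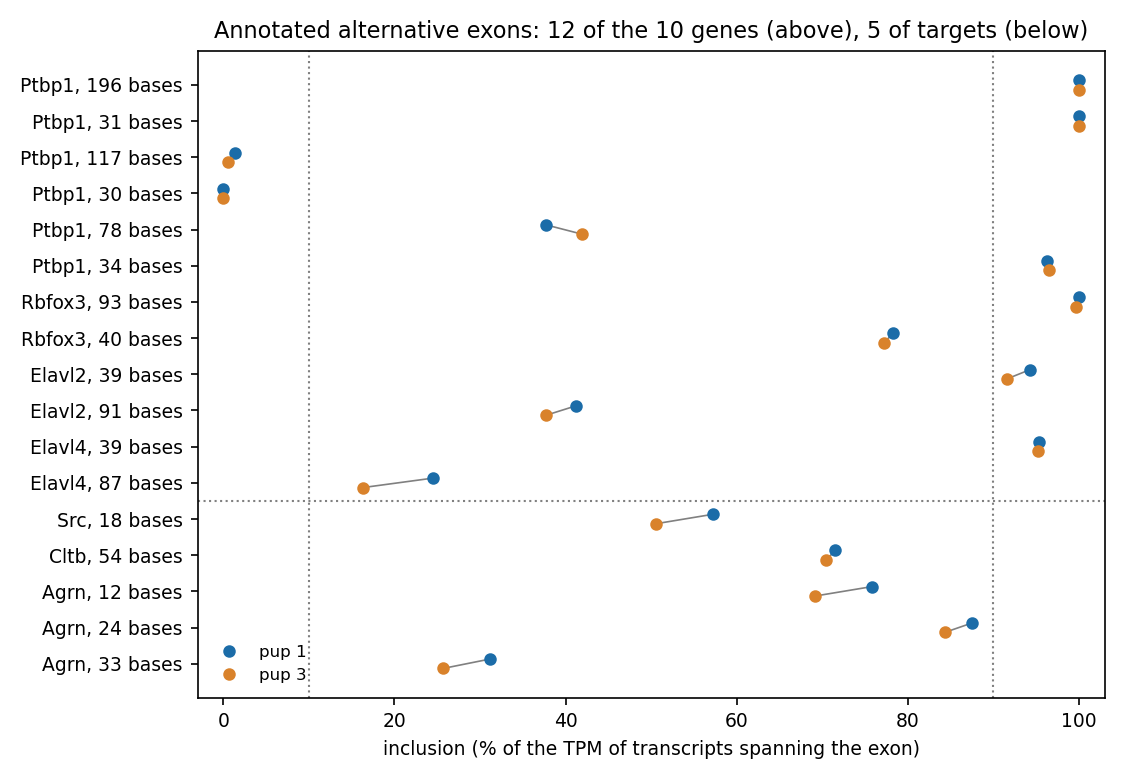
Inclusion of annotated alternative exons in percent of the TPM of transcripts that contain or skip them, in pup 1 and pup 3. The 12 exons that could be read in the 10 genes lie above the dotted line and 5 exons of known targets below it. Vertical lines mark 10% and 90%. The 34-base Ptbp1 exon sits at 96.3% and 96.5%, the 78-base one at 37.7% and 42.0%, and the target exons run from 25.7% to 87.5%, both ends being Agrn z exons that are at 66.8% ± 6.56 in coding transcripts alone.

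The pups were close for all 10 genes. On the log2 scale, pup 1 minus pup 3, the largest difference was -0.21 for Nova2, and the median size was 0.105, against 0.109 over the 13254 genes whose mean count reached 100. None of the 10 passed a difference of 1, which 0.302% of the 13254 did. Nova1 (-0.0039) and Rbfox3 (-0.013) differed least, and Rbfox1 (0.15) and Elavl4 (0.053) were the only genes higher in pup 1. The other 8 were lower in pup 1, where 54.7% of the 13254 genes were. With counts scaled by edgeR or DESeq2, 7 of the 10 were lower in pup 1. A list of 7 forebrain genes also differed between the pups, with 4 of 7 at 1 TPM or more in both, a summed level of 52.5 TPM in pup 1 and 73.3 in pup 3 and a median log2 difference of -1.27. Its part in these differences was not tested.

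Other RNA-binding regulators of splicing were widely present. Of 60 symbols listed by role, 58 were matched and 54 of these reached 1 TPM in both pups. Over all 21474 protein-coding genes, 62.1% reached this level. The 2 unmatched symbols, Cugbp1 and Ksrp, are older names of Celf1 and Khsrp, which were read. By TPM, the level was lower in pup 1 than in pup 3 in 53 of the 58, the direction of 8 of the 10 genes. Over the 13254 genes used above to compare the pups, this share was 54.7%. The 58 were not read with counts scaled by edgeR or DESeq2, and whether they shift together was not tested.

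The microexon regulators Srrm3 and Srrm4, which promote very short exons in neurons, had 44.5 and 9.31 TPM in pup 1 and 49.6 and 12.2 TPM in pup 3. Among partners of Ptbp1, Matr3 was the highest with 564 (pup 1) and 583 (pup 3) TPM, and Raver2 the lowest with 4.70 and 4.06 TPM. All 12 SR and Tra2 genes were at 1 TPM or more, from Srsf2 (404 ± 14.8 TPM) to Tra2a (27.4 ± 2.91 TPM). The hnRNP and related genes ran from Hnrnpk (797 ± 20.9 TPM) to Tial1 (22.6 ± 3.04 TPM). The Celf genes ran from Celf4 (244 ± 17.4 TPM) to Celf3 (32.5 ± 3.03 TPM).

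Among the STAR proteins, Khdrbs1 was the highest (70.4 ± 5.52 TPM) and Khdrbs3 the lowest (12.5 ± 1.44 TPM). The Musashi gene Msi1, a progenitor and astrocyte gene, had 39.7 ± 6.64 TPM and Msi2 had 20.6 ± 3.18 TPM. Of the Mbnl genes, Mbnl1 led with 43.5 ± 5.402 TPM, and Mbnl3 had 0.43 TPM in pup 1 and 1.08 TPM in pup 3. Of the regulators of epithelia and muscle, Esrp1, Esrp2 and Rbm20 were below 1 TPM in both pups, while Rbm24 and Rbm38 were above it. The epithelial Esrp1 had 0.12 and 0.22 TPM and Esrp2 had 0.050 and 0.27 TPM, while the heart and muscle gene Rbm20 had 0.30 and 0.47 TPM, Rbm24 had 2.82 and 3.04 TPM and Rbm38 had 6.32 and 6.18 TPM.

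**Figure D5:**
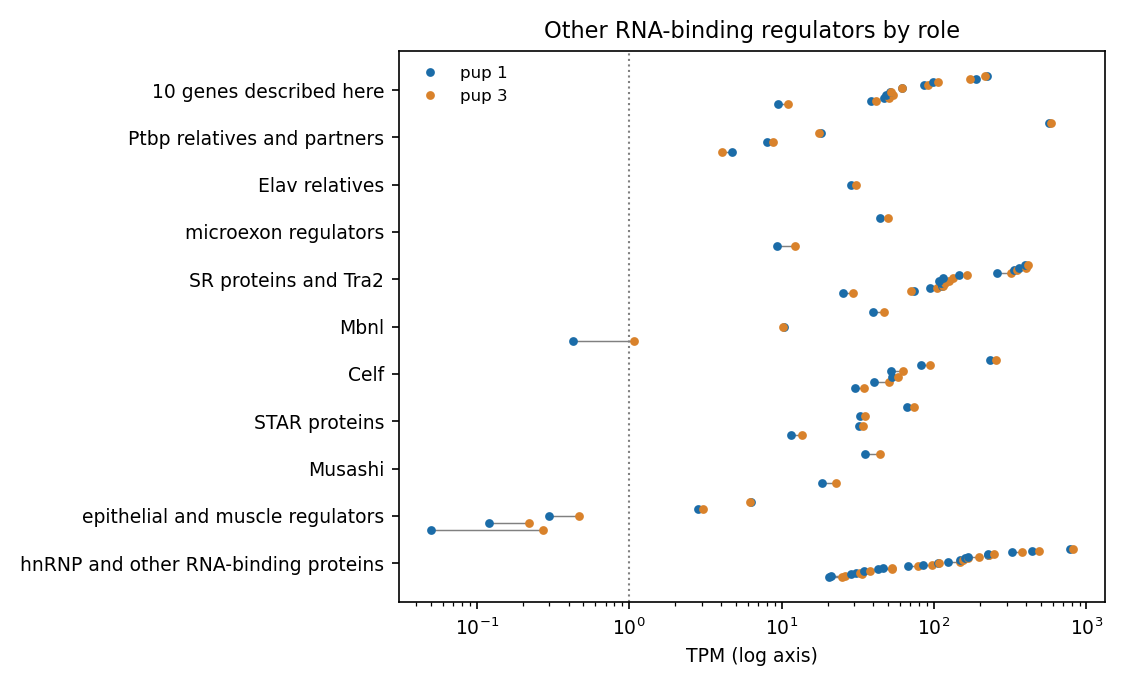
TPM (log axis) of the 10 genes and of 58 other RNA-binding regulators by role, 1 point for each pup, with the 2 pups of a gene joined; the dotted line marks 1 TPM. The 3 lowest genes, Esrp2, Esrp1 and Rbm20, belong to the epithelial and muscle group, and Hnrnpk is the highest at 797 ± 20.9 TPM.

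Host transcripts of the microRNAs that act on Ptbp1 and on progenitor genes were read. Mir124-2hg, a host of miR-124, had 69.9 (pup 1) and 71.7 (pup 3) TPM, and Mir124a-1hg had 12.95 and 17 TPM. Mir9-3hg, a host of miR-9, had 71.1 and 65.8 TPM. The hairpin gene Mir124a-3 had 0 counts in each pup, in libraries of RNA above 200 bases, and a count of 0 allows up to 3. The mature microRNAs were not measured.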

How the data were processed

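The 10 genes, the pairs and the other lists were chosen with earlier results of these data known. Per the labels, RNA came from 1 midbrain of each of 2 pups. Per a record the authors deposited beside the tables, quantification used transcriptome alignments on mm10 with GENCODE M4; sources used here name no program, version or use of strand. The authors deposited expected counts (estimated reads per gene or transcript), TPM and FPKM (both divided by effective length), the percent of a gene's TPM held by each transcript, posterior means, and bounds, in other columns, of a credibility interval of unstated level, which belongs to the posterior mean and need not contain the TPM. Symbols, transcript classes and exons came from GENCODE M21 (same build); 6 member transcripts differ in length between releases, the only transcripts of Nova1 and Elavl3, Rbfox1-201 and 3 of Rbfox2. Log2 values have 0.1 TPM added, which understates ratios of low genes. Exons used only transcripts of equal length in both releases. Expected counts were rounded for edgeR 4.0.16 and DESeq2 1.42.0, used only for scaling factors. Genes without a symbol held 0.154% (pup 1) and 0.162% (pup 3) of counts. Genes named were all 10, their relatives, transcripts at 10% or more of a gene (noncoding ones at 5%), and the highest and lowest regulator of each role with every microexon, epithelial and muscle one. Intervals and floors cover counting error only. The difference between pups was tried on simulated counts with an assumed spread. The exon measure was checked only on made-up transcripts of given TPM, which does not test how reads are divided among transcripts. Python 3.11.15, pandas 2.3.3 and R were used. Some exons of known target genes are not reported here.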

Additional observations from a re-analysis of the deposited data

How the results depend on the processing

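Counting rules decided several pair calls. The interval criterion was left out for scales without deposited intervals, and ratios from counts per base of the longest transcript and from complete coding transcripts were chosen after seeing the data. Of 120 pair values under alternatives, 104 kept direction and side of the threshold. Many of the 120 could hardly change, so this count says little about stability. FPKM is TPM rescaled within a library, and adding 0.01 or 1 TPM matters little at these levels. Leaving out 1 pup reuses the values of the other. With expected counts not divided by length, 4 pairs were apart, and the log2 ratios were -0.27 for Rbfox1 over Rbfox2, -1.21 for Rbfox3 over Rbfox2, -0.94 for Rbfox3 over Rbfox1, 0.40 for Elavl4 over Elavl3, -0.031 for Elavl2 over Elavl4, 0.90 for Elavl2 over Elavl1 and 0.93 for Elavl4 over Elavl1. With counts per base of the longest transcript, 5 pairs were apart, with 0.52 for Rbfox1 over Rbfox2, -0.049 for Rbfox3 over Rbfox2, -0.57 for Rbfox3 over Rbfox1, 0.67 for Elavl4 over Elavl3 and -0.046 for Elavl2 over Elavl4. Protein-coding transcripts gave 0.88 for Elavl4 over Elavl3 and -0.25 for Elavl2 over Elavl4; complete coding ones gave 0.22 and 0.39. Genes with 10% or more of TPM in noncoding or decay-targeted transcripts numbered 2 by posterior means, 0 for decay targets alone and 2 with either pup left out, since Ptbp1 passed in pup 1 alone (13.4% in pup 1 and 9.54% in pup 3) and Elavl2 in pup 3 alone (7.94% in pup 1 and 10.9% in pup 3). Genes past a difference of 1 between pups numbered 40, against 26 with 1 TPM added, 368 at a mean count of 10 and 2291 with no filter. Of the alternatives that keep both pups, single exons moved by more than 1 SD in 42 of 94 and noncoding shares in 8 of 21. Leaving out 1 of 2 pups cannot move a mean by 1 SD and says nothing about stability here. The cause of these changes was not tested.

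No paired analysis was possible because there is 1 group. With 2 animals the SD rests on 2 values. Exon inclusion depends on how reads were divided among annotated transcripts, and no junction reads were used here.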

Other observations

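Mapt, the gene of tau and a further target of these regulators, had its 2 alternative 87-base exons of the N-terminal region included at 23.0% and 22.9% in pup 1 and at 23.3% in pup 3 for both. A 54-base exon was included at 50.2% in pup 1 and 49.9% in pup 3, and only Mapt-205 contains it. The 759-base exon known from tau of peripheral neurons was at 0.110% and 0.177%.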
